A study of Homo sapiens with 12 samples.

Results

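The genes described here are 38 members of the mitogen-activated protein (MAP) kinase cascade, measured for 5-methylcytosine (5mC) and 5-hydroxymethylcytosine (5hmC) in SV-HUC-1 cells. They were chosen by name, as 12 genes of the MAPK tier, 7 of the MAP2K tier, 14 of the MAP3K tier and 5 of the MAP4K tier. A gene counted as measured with at least 5 CpGs in its hg38 span plus 1500 bp on each side. By that rule all 38 members were measured, of 18416 protein-coding genes in all.

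SV-HUC-1 is a line of human urothelial cells immortalised with SV40, so every group shares that background and represents a single line. Cells were given 2,6-dichloro-1,4-benzoquinone (DCBQ), a by-product of water disinfection, or a blank solution. Both treatments lasted 3 days. Each had 3 reduced representation bisulfite libraries and 3 oxidative ones, and the authors' tables give 3 samples per treatment for each mark. Nothing in the labels ties the 3 samples of a treatment to different cultures, and p-values below therefore reflect sample-to-sample spread that could be technical alone. The starts of epithelial and urothelial marker genes had a median 5mC of 4.67% in controls (14 of 19 measured). Their mean was 19.3%, and 9 of the 14 were under 10%. Those of leukocyte and endothelial markers had a median of 84.1% (7 of 15 measured), with 0 under 10%. Only 3 of 10 fibroblast markers were measured, with a median of 54.9% and 1 under 10%.

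The cascade passes a signal down by phosphorylation: a MAP4K or another input activates a MAP3K, which phosphorylates a MAP2K, which in turn phosphorylates a MAPK on a threonine and a tyrosine. The MAPKs of the ERK branch mainly carry growth factor signals, while those of the JNK and p38 branches respond to stress and cytokines. In mammalian cells, CpG-rich gene starts are usually unmethylated, the bodies of transcribed genes are usually methylated, and 5hmC is the product of oxidation of 5mC by TET enzymes.

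Values are the mean fraction over the CpGs of a window, given in percent. The start window runs from 1500 bp before to 500 bp after the first transcription start that RefSeq lists for the gene, and the body from there to the other gene end. For MAP3K1 and MAPK15, which had no entry in the promoter table used, the gene end with more measured CpGs was taken as the start. Differences are DCBQ minus control in percentage points, with the standard error (SE) from limma fitted over all genes with at least 5 CpGs. Groups are called apart where every DCBQ sample lies on the same side of every control sample. The depth behind each fraction is unknown, and the number of CpGs is given instead.

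The 250 bases before the start are printed for 5 members on which the results at the start turn, with each measured CpG in capitals. Sequences are RefSeq promoters of GRCh38.p14, read 5′ to 3′ on the strand of the gene. MAPK11 is shown because methylation reached its start, MAPK14 and MAP2K6 because methylation stopped short of it, and MAPK8 because its start window had the smallest p of the members for 5mC. MAP2K2 is shown at both starts, since its listed starts differed in level.
MAPK11 (chr22:50270381-50270630, minus strand): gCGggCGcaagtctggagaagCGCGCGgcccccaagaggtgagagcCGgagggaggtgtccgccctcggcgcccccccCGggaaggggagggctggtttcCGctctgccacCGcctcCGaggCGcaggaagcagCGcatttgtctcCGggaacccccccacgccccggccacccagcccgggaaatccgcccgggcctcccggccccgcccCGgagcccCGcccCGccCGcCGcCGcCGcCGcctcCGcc
MAPK14 (chr6:36027558-36027807, plus strand): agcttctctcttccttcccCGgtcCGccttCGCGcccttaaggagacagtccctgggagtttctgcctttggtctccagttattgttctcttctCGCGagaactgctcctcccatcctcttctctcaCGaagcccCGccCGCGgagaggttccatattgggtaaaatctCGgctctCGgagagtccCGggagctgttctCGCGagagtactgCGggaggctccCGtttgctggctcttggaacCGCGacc
MAPK8 (chr10:48306427-48306676, plus strand): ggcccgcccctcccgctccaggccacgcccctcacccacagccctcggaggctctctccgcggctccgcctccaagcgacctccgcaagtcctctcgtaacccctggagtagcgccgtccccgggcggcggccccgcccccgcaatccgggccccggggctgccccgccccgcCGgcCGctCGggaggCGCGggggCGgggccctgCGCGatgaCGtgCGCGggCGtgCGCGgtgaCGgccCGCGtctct
MAP2K6 (chr17:69414447-69414696, plus strand): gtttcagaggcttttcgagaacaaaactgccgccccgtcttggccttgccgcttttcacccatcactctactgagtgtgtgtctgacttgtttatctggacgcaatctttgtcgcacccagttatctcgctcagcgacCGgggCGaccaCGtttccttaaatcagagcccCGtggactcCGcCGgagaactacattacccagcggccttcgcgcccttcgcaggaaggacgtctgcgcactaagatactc
MAP2K2, first listed start (chr19:4124123-4124372, minus strand): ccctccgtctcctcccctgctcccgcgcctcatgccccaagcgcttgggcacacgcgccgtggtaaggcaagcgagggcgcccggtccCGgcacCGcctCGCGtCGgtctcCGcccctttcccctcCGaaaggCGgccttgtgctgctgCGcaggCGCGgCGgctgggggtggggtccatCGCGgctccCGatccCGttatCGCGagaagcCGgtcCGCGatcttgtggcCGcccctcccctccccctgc
MAP2K2, second listed start (chr19:4103207-4103456, minus strand): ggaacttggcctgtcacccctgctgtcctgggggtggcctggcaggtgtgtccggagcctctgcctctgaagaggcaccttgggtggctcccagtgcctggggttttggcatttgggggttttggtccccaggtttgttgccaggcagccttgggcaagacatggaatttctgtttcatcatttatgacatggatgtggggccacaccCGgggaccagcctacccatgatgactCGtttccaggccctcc

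The MAPK11 stretch held 32 CpGs, of which 22 were measured, with a control 5mC of 10.8% ± 2.30 (SD, n = 3). All 19 CpGs of the MAPK14 stretch were measured and averaged 0.37% ± 0.19. For MAPK8, 17 of 38 CpGs were measured and averaged 0.75% ± 0.34. In MAP2K6, 6 of 20 CpGs were measured, at 4.30% ± 0.61. The first start of MAP2K2 had 22 measured CpGs of 32, at 0.65% ± 0.25, whereas its second start had only 3 CpGs, of which 2 were measured, at 58.9% ± 7.54. The CpG-dense stretches were thus the ones with low 5mC, apart from MAPK11. Over the 300 bases around the first listed start, the 36 members with a RefSeq entry held a median of 37 CpGs, and all 15841 genes with one held a median of 22. The lowest members were MAP3K2 with 2, MAPK10 with 9 and MAP4K1 with 10.

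Most of the cascade had almost no 5mC at its starts in control cells. Of the 37 members measured there, 29 were under 10%, or 78.4%, against 60.5% of all 15396 genes measured at their starts. No member reached 80%, while 8.07% of all genes did. The median member stood at 2.77% and the median gene at 4.77%. The MAP3K tier, which holds the kinases that sense the most varied inputs, was the lowest, with 13 of 14 starts under 10% and a median of 1.23%. Its range ran from MAP3K14 (NIK, of non-canonical NF-κB signalling) at 0.89% ± 0.27 to MAP3K10 (a mixed-lineage kinase) at 10.3% ± 0.39. In the MAP4K tier 4 of 5 starts were under 10%, from MAP4K3 at 1.20% ± 0.13 to MAP4K2 at 23.1% ± 0.20. In the MAPK tier 8 of 11 were, and in the MAP2K tier 4 of 7.

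**Figure D1:**
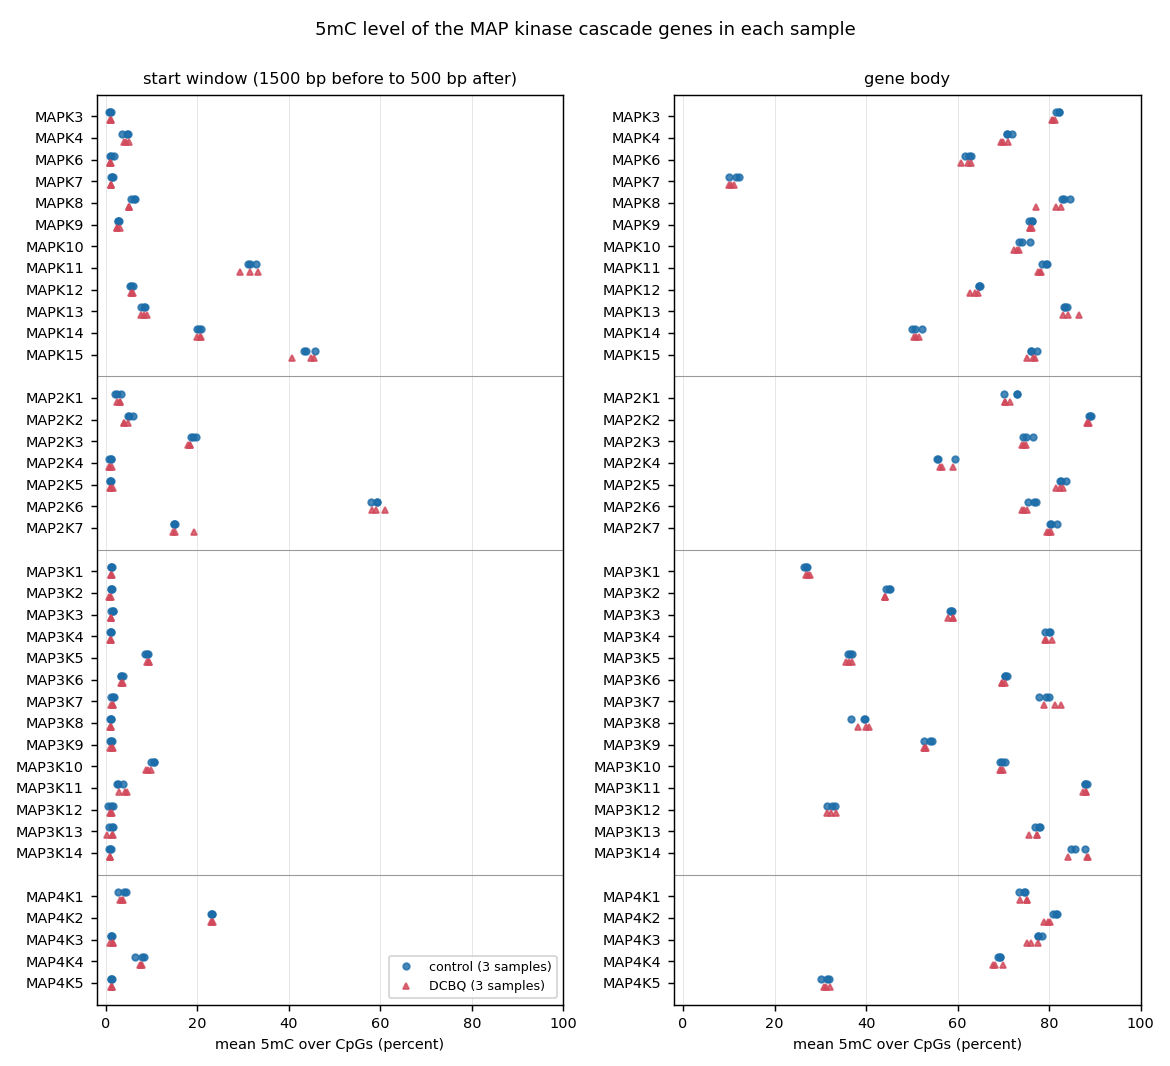
Mean 5mC in percent (x axis) of each member (y axis, grouped by tier) in each of 3 control samples (circles) and 3 DCBQ samples (triangles), at the start (left) and in the body (right). The starts of 29 of 37 members lie under 10% and MAP2K6 is highest at 58.9%, while most bodies lie above 50% with MAPK7 lowest at 11.3%.

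Methylated starts, with 20% to 80% 5mC in controls, were found at 5 of 37 members. That is 13.5%, less than the 20.5% of all genes. Of these 5 genes, 3 are MAPKs. MAP2K6, which activates the p38 kinases, was highest, with 59.4%, 58.0% and 59.2% in the controls and 61.0%, 58.2% and 59.0% in DCBQ over 18 CpGs. All 18 lie upstream, from -709 to -68 bp, and no CpG was measured from the start to 500 bp after it. Its rank therefore rests on upstream sequence alone. MAPK15, an atypical MAPK, read 45.8%, 43.7% and 43.3% in the controls and 45.6%, 44.8% and 40.8% in DCBQ over 39 CpGs. MAPK11, the beta isoform of p38, read 32.8%, 31.1% and 31.5% against 29.3%, 33.3% and 31.6% over 138 CpGs. In these 3 genes the groups overlapped. MAP4K2, a germinal centre kinase, had a control mean of 23.1% and MAPK14, the alpha isoform of p38, one of 20.4% ± 0.41. The p38 branch, with MAP2K6, MAPK11 and MAPK14, thus held 3 of the 5 members. Its other genes were lower: MAP2K3 stood at 19.2% ± 0.50, MAPK13 at 8.23% ± 0.44 and MAPK12 at 5.55% ± 0.36.

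When the window was divided, methylation lay upstream of the start in MAP2K6 and MAPK14, on both sides of an unmethylated core in MAP4K2, and from 50 bp on in MAPK15. In the part upstream, from 1500 bp to more than 250 bp before the start, MAP2K6 had 86.2% ± 1.42 over 12 CpGs, and in the core, from 250 bp before to 49 bp after, 4.31% ± 0.61 over 6. MAPK14 fell from 62.0% ± 1.31 upstream to 0.29% ± 0.15 in the core, MAP4K2 from 47.2% ± 0.14 to 1.33% ± 0.45, and MAP2K3 from 44.4% ± 0.57 to 1.19% ± 0.85. These cores were thus low in 5mC beside methylated upstream sequence. From 50 to 500 bp after the start, MAP4K2 had 22.5% ± 0.48 and MAPK15 66.0% ± 0.59. Of 34 members with at least 5 CpGs in the core, 32 were under 5% in controls. The exceptions were MAPK15 at 16.1% ± 3.22, whose start was placed by CpG density, and MAPK11 at 13.6% ± 3.77.

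MAPK11 differed from the other p38 genes in that methylation continued through the start. Its upstream part had 40.3% ± 0.64 over 64 CpGs and the part from 50 to 500 bp after the start 34.2% ± 1.24 over 39. The 35 core CpGs read 17.7%, 10.3% and 12.8% in the controls and 4.46%, 17.2% and 12.6% in DCBQ. The samples of each group were spread more widely than the groups were apart. For 5hmC the same core read 0.53%, 4.40% and 2.33% in the controls and 5.95%, 0.72% and 2.64% in DCBQ, which is exactly the reverse order of samples. The series' design text links 5mC to the bisulfite libraries and 5hmC to the oxidative ones, but no source used here says whether a value of one mark was computed with reads of both. Across samples, 5hmC was above 0 at 19.99% to 23.83% of the CpGs with a 5mC fraction of 0. Where the 5mC fraction was 1, it was above 0 at 0.94% to 1.13%. The marks summed to more than 1 at 2.75% to 3.34% of CpGs. The values of the marks at a CpG were thus related. A CpG with full 5mC has no room for 5hmC, so these shares cannot show whether reads were shared. Whether the marks were measured independently was not tested.

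**Figure D2:**
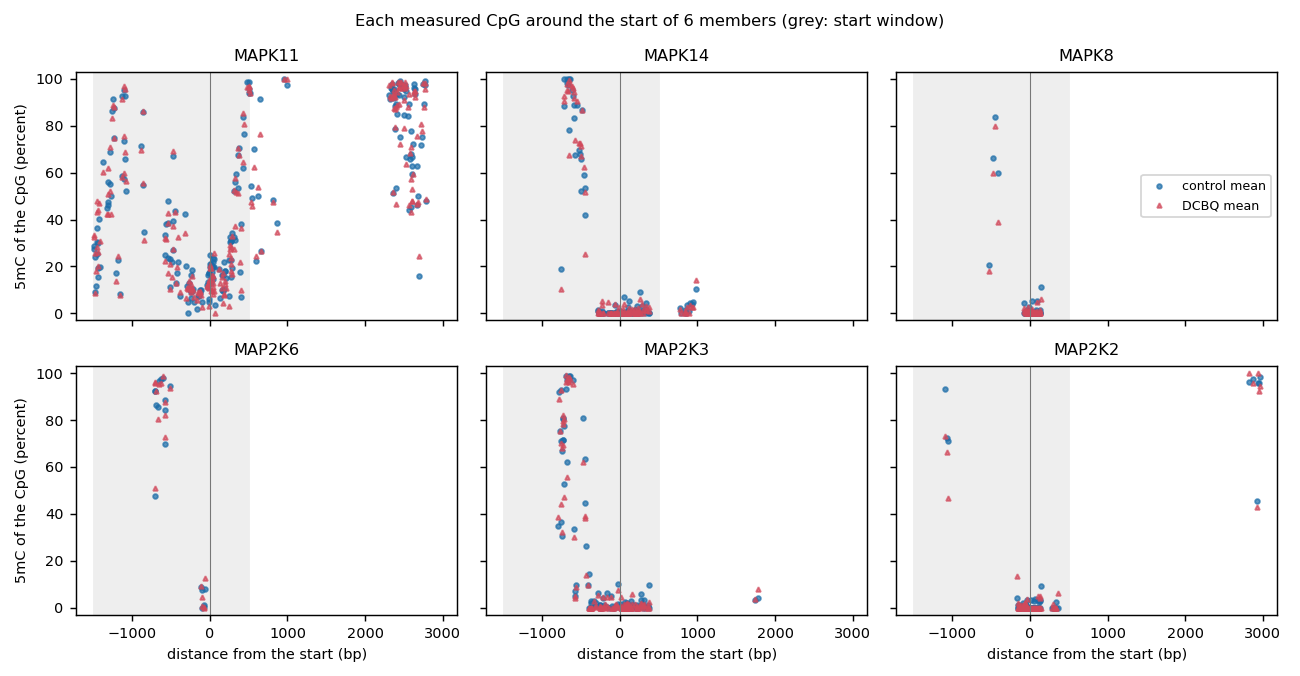
5mC in percent (y axis) of each measured CpG against its distance from the start in bp (x axis) for 6 members, as the mean of 3 control samples (circles) and of 3 DCBQ samples (triangles); grey marks the start window. MAPK14, MAP2K6 and MAP2K3 fall from high values upstream to under 5% on average in the core, whereas MAPK11 averages 13.6% there in controls.

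Alternative starts of a gene could differ. The second listed start of MAP2K2 (MEK2, of the ERK branch) lies 20.9 kb inside the gene, and its 2 kb window had 80.6% 5mC in controls, against 5.26% ± 0.52 at the first. MAPK10 (the JNK isoform of brain and heart) had no measured CpG at its 3 listed starts and was the member left out there. The outer 5′ end of MAPK10, 234.0 kb away, had 1.16% ± 0.39 over 55 CpGs. The outer end of MAP4K5 read 34.0% ± 0.77, against 1.22% ± 0.20 at the start used, 28.6 kb inside. The outer end of MAPK6 (the atypical kinase ERK3) read 7.61% ± 1.38 against 1.29% ± 0.54.

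By distance, 5mC over the members' CpGs dropped from 55.3% between 1000 and 750 bp upstream to 1.55% in the last 250 bp before the start. It stayed at 5.07% between 500 and 749 bp after the start and reached 75.4% between 1500 and 1749 bp. Over all genes the same bins had 35.6%, 6.72%, 12.5% and 44.2%. Around the start the members lay under the mean of all genes. The last of these bins rests on 29 member CpGs. The members' 5hmC followed the same course, with 4.98%, 0.92%, 0.90% and 2.79% in these bins.

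**Figure D3:**
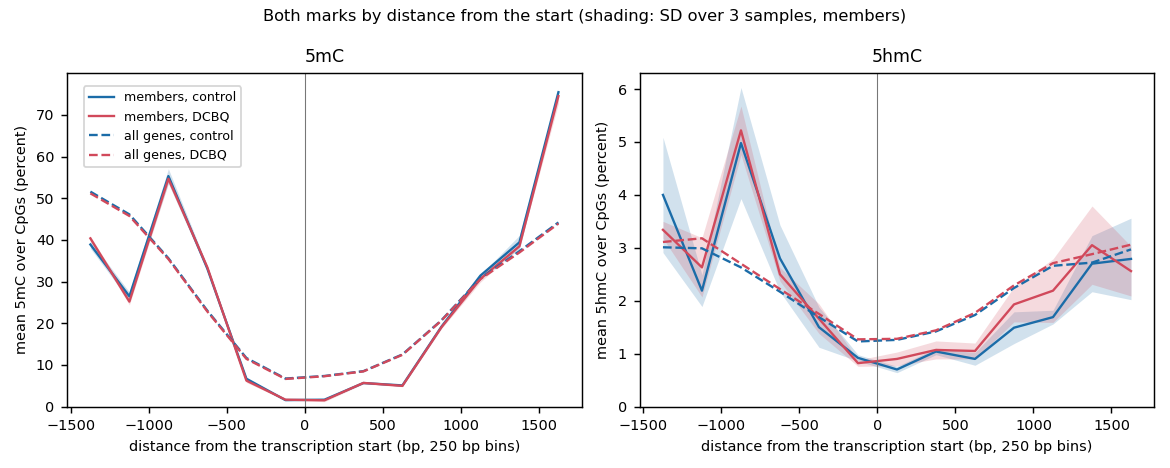
Mean 5mC (left) and 5hmC (right) in percent (y axes) by distance from the start in 250 bp bins (x axis), for members (solid) and all genes (dashed), control in blue and DCBQ in red, shading showing the SD over 3 samples. The lines of the groups lie close together for 5mC, and members are at 1.55% just before the start against 6.72% over all genes.

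In the bodies, 5mC was high, with a median member of 74.4% in controls and a median gene of 72.6%. Every one of the 37 members measured at both places had more 5mC in the body than at the start. The highest were MAP2K2 at 89.0% ± 0.23, MAP3K11 (MLK3) at 88.0% ± 0.23 and MAP3K14 at 86.1% ± 1.53. The lowest were MAPK7 (ERK5) at 11.3% ± 1.11, MAP3K1 (MEKK1) at 26.8% ± 0.36, MAP4K5 at 31.2% ± 0.92 and MAP3K12 (DLK) at 32.4% ± 0.87. Tiers had medians of 75.3% (MAPK), 76.4% (MAP2K), 64.2% (MAP3K) and 74.3% (MAP4K).

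In the lowest bodies the unmethylated stretch ran on past the start window. MAP3K1 had 64 CpGs past 500 and up to 3000 bp at 1.24% ± 0.10 and 32 beyond 3000 bp at 78.0% ± 0.89. MAP3K5 (ASK1) had 1.14% ± 0.15 and 81.3% ± 0.90, and MAP4K5 1.06% ± 0.15 and 83.9% ± 2.28. In MAPK7, 69 of the 76 body CpGs lay within 3000 bp of the start and had 4.49% ± 1.44. Beyond 3000 bp, 36 of 37 members with at least 5 CpGs had 70% or more. The exception was MAP3K12, whose gene model overlaps PCBP2, and where 41 CpGs between 6 and 7 kb from the start averaged 2.26% and the 17 CpGs of the next kilobase 82.6%.

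5hmC was scarce throughout. At the start the median member had 0.89% in controls and the median gene 1.17%, and all 37 members were under 10%. The highest were MAPK15, with 3.69%, 6.25% and 8.43% in the controls and 3.85%, 2.30% and 6.65% in DCBQ, and MAPK11, with 4.07%, 4.33% and 4.08% against 5.45%, 4.09% and 5.31%. The groups overlapped in both, and both are among the members with methylated starts. The lowest was MAPK6 at 0.36% ± 0.25. Over tiers, the lowest and highest starts were MAP2K4 (0.51% ± 0.23) and MAP2K7 (2.83% ± 0.99), MAP3K8 (0.54% ± 0.22) and MAP3K12 (1.64% ± 0.59), and MAP4K5 (0.78% ± 0.25) and MAP4K4 (1.85% ± 0.58).

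The bodies had a median of 2.79% 5hmC (all genes 3.24%), more than the start in 36 of 37 members. MAPK10 had the most, at 6.40% ± 1.29, followed by MAPK15 at 4.56% ± 0.73, MAPK11 at 4.46% ± 0.58 and MAP4K1 (HPK1) at 4.41% ± 0.37. The least was in MAP3K1 at 1.08% ± 0.32, MAP3K2 at 1.34% ± 0.32 and MAPK7 at 1.45% ± 0.40, where 5mC in the body was 26.8%, 44.8% and 11.3%. Across members, levels of the marks in controls had a Spearman rho of 0.70 at the start (37 genes) and 0.49 in the body (38 genes). Over all genes these were 0.82 and 0.13. Genes are not independent replicates, and most CpGs are shared by the tables of both marks.

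**Figure D4:**
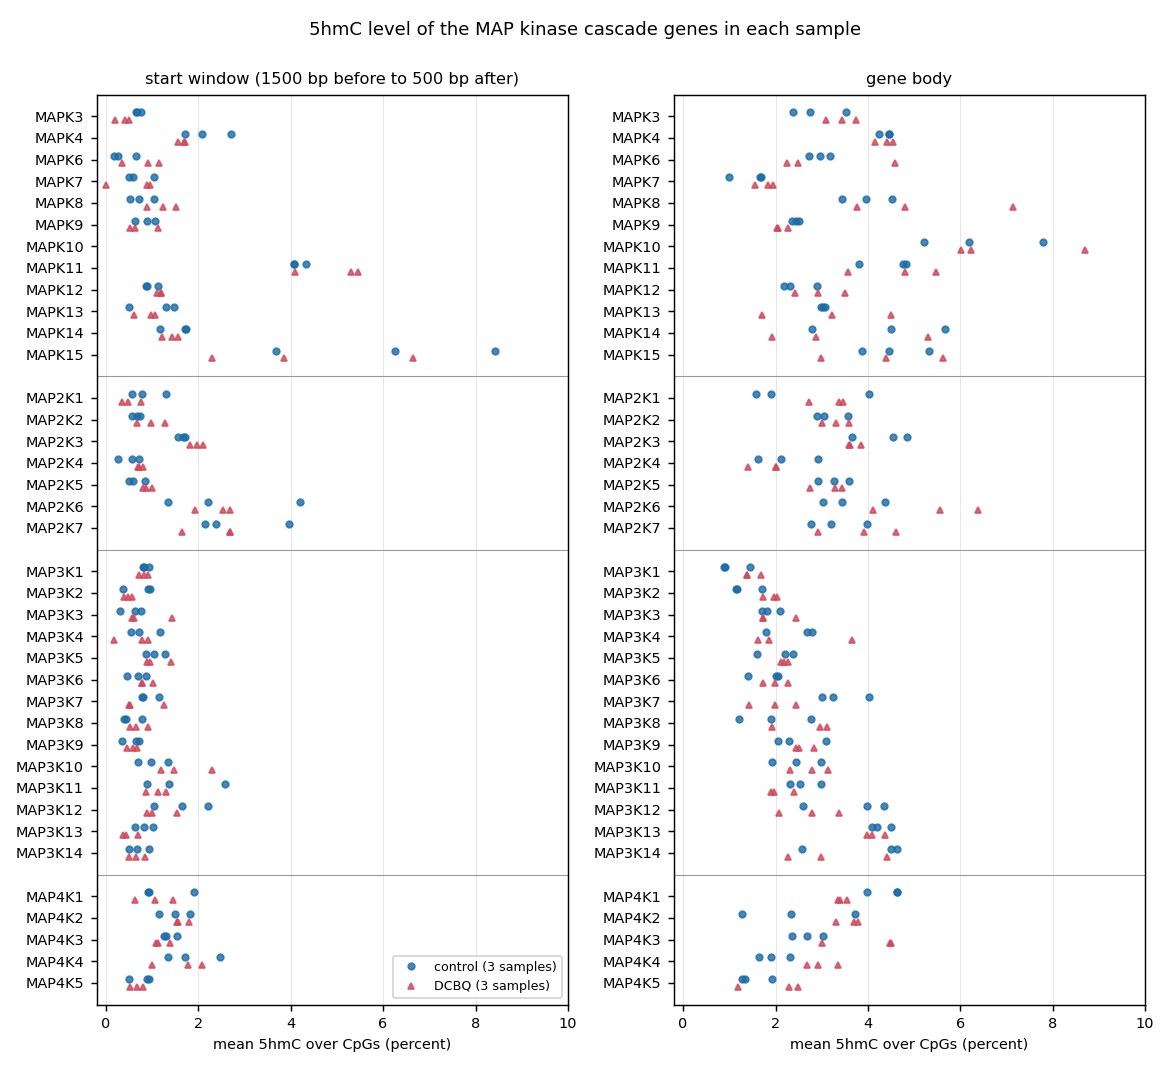
Mean 5hmC in percent (x axis) of each member (y axis, grouped by tier) in each of 3 control samples (circles) and 3 DCBQ samples (triangles), at the start (left) and in the body (right). Most starts lie under 2% with MAPK15 and MAPK11 highest, and bodies lie higher, up to a control mean of 6.40% in MAPK10.

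Whether DCBQ changed either mark at these genes was tested next. No member passed the limma test at an adjusted p of 0.05 for 5mC at the start (0 of 37, percent called over all genes 0) or in the body (0 of 38, all genes 0). The same was true of 5hmC at the start (0 of 37, all genes 0) and in the body (0 of 38, all genes 0), and over whole spans for both marks (0 of 38 each, all genes 0). The smallest limma adjusted p of a member was 0.678 at the start and 0.574 in the body for 5mC, and 0.958 and 0.918 for 5hmC. At an unadjusted p under 0.05, limma counted 1 member at the start and 2 in the body for 5mC, where all genes gave 6.63% and 8.55%. For 5hmC it counted 1 and 3, where all genes gave 4.93% and 5.29%. Counts this small are close to what those shares give for 37 or 38 genes.

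Most differences were under 1 point, which is small beside the 5mC of bodies but not beside 5hmC. At the start, 5mC differed by less than 1 point in 35 of 37 members, with a median SE of 0.29 points and a largest SE of 1.48. In the body it differed by less than 1 point in 28 of 38, with a median SE of 0.63. For 5hmC, 36 of 37 starts and 32 of 38 bodies differed by less than 1 point, with median SEs of 0.25 and 0.46 points. Its levels were themselves low. The median absolute 5hmC difference was 0.22 points at the start and 0.48 in the body, beside median control levels of 0.89% and 2.79%. A difference missing the threshold does not show that the groups were alike, and these SEs set what could be seen.

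For direction, 5mC at the start was lower with DCBQ in 16 of 37 members (all genes 59.6% lower), with a median difference of 0.05 points (all genes -0.10). In the body it was lower in 28 of 38 (all genes 69.5%), with a median of -0.45 (all genes -0.39). Among the bodies, 11 of 12 were lower in the MAPK tier, 6 of 7 in the MAP2K tier, 8 of 14 in the MAP3K tier and 3 of 5 in the MAP4K tier, with medians of -0.85, -0.60, -0.04 and -0.51 points. The mean 5mC over all CpGs was itself lower with DCBQ, with 54.7%, 54.5% and 54.5% in the controls and 54.1%, 54.2% and 54.1% in DCBQ. After each sample was centred on that mean, 19 of 38 bodies and 5 of 37 starts were lower, so the direction of a member is relative to the scale chosen. Centring moves every window of a sample by the same number of points, whatever its level. At the start, 29 of 37 members differed by less than 0.5 points, so such a shift can set their sign by itself. 5hmC was lower in 23 of 37 starts (all genes 46%) and in 14 of 38 bodies (all genes 43.6%). After centring, these counts were 24 and 14. The share of all genes lower after centring is not given here for either mark, so the centred counts have no background beside them.

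**Figure D5:**
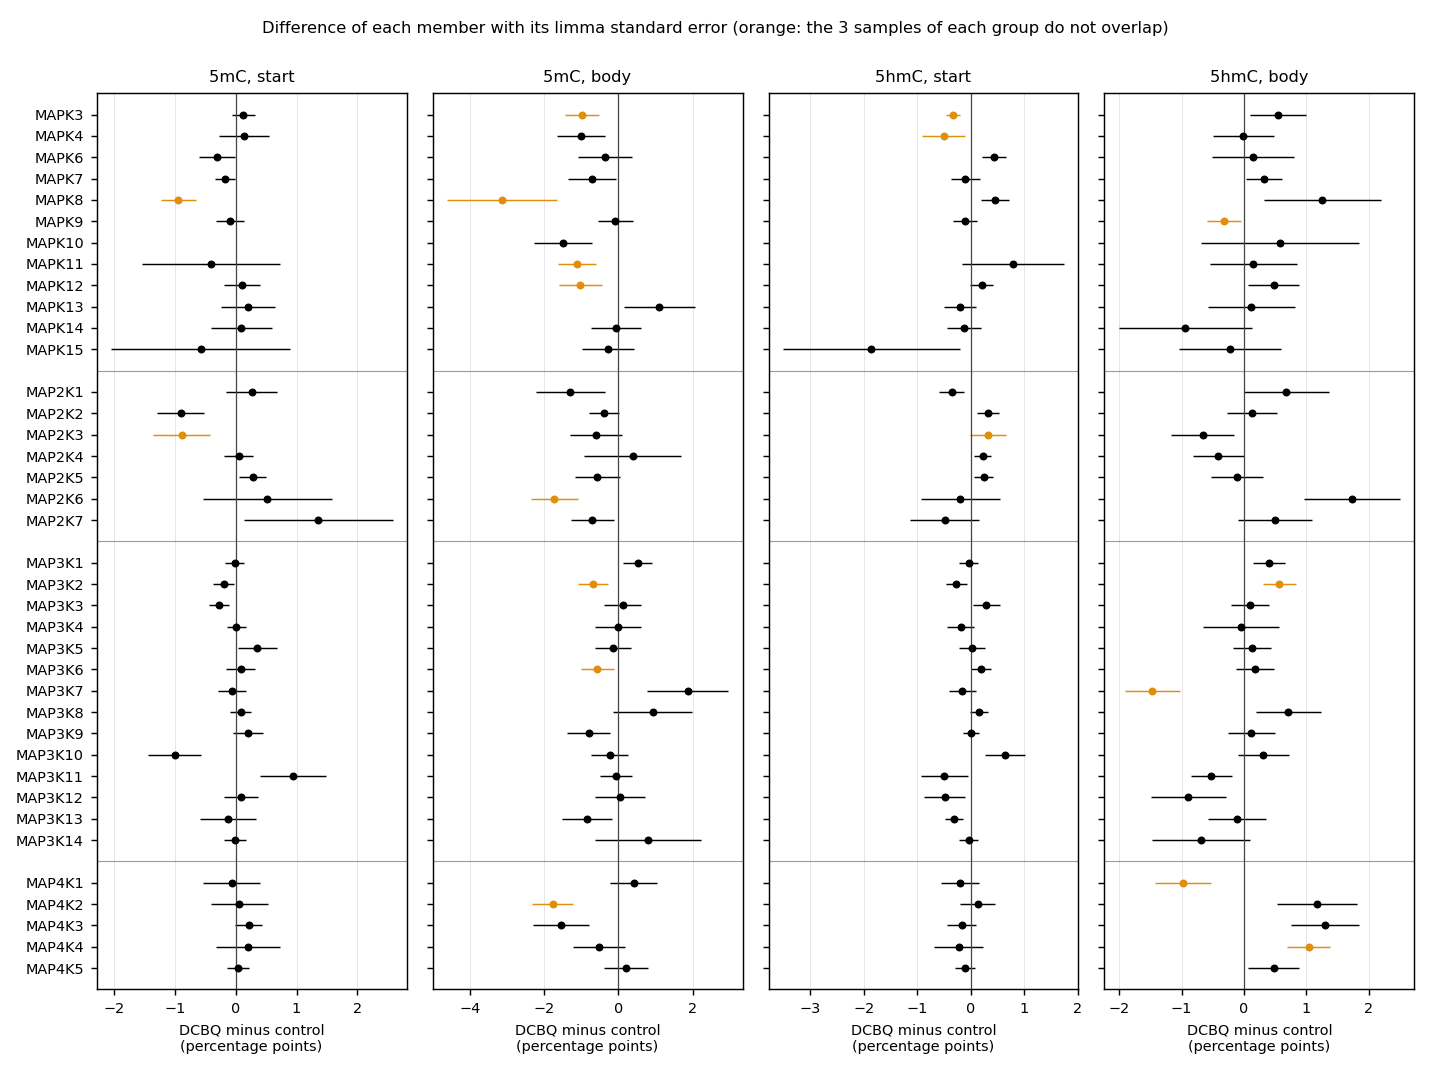
DCBQ minus control in percentage points (x axes) for each member (y axis, by tier) with the limma standard error as bars, for 5mC and 5hmC at the start and in the body; orange marks members whose groups do not overlap. The 8 orange bodies for 5mC all lie below 0, and none of the differences passed the adjusted threshold.

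At the starts, the 5mC groups were apart in 2 of 37 members, both lower, where all genes gave 11.9% apart, 8.2% lower and 3.74% higher. MAPK8 (JNK1) had 6.34%, 6.16% and 5.54% in the controls and 4.98%, 5.08% and 5.13% in DCBQ over 45 CpGs (chr10:48305177-48307177). All 3 DCBQ samples were lower than every control, by 0.95 points on average (SE 0.29, limma adjusted p = 0.678). The difference lay in 4 CpGs upstream of the sequence shown above, which read 58.2%, 56.2% and 58.4% against 49.3%, 49.6% and 48.5%. In the core, its 25 CpGs had 0.80% ± 0.28 and 0.60% ± 0.10. MAP2K3 (MKK3, which activates p38) had 19.7%, 19.1% and 18.7% in the controls and 18.4%, 17.98% and 18.4% in DCBQ over 113 CpGs. All DCBQ samples were lower, by 0.89 points on average (SE 0.47, limma adjusted p = 0.819). Here too the groups were apart in the 47 upstream CpGs, at 44.4% ± 0.57 and 42.5% ± 0.60, and overlapped in the core. Of 34 cores, 1 was apart and higher and 1 apart and lower, with no share of all genes at hand. The MAPK14 core read 0.15%, 0.45% and 0.28% in the controls and 0.78%, 1.16% and 0.97% in DCBQ. That of MAP3K4 went from 1.13% ± 0.03 to 0.92% ± 0.08. In both genes the whole start windows overlapped.

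Next in order of p, MAP3K10 read 9.81%, 10.5% and 10.5% in the controls and 9.12%, 9.90% and 8.72% in DCBQ. The groups overlapped by 1 sample, with a difference of -1.01 points (SE 0.43, limma adjusted p = 0.746). MAP2K2 read 5.84%, 4.81% and 5.14% against 4.04%, 4.06% and 4.96%, a difference of -0.91 points (SE 0.39, limma adjusted p = 0.757). That difference rested on 3 upstream CpGs, at 78.9% ± 7.71 and 62.1% ± 6.25, and the 29 core CpGs had 0.61% ± 0.18 and 0.95% ± 0.46. Within 500 bp of the start on each side, the MAP2K2 difference was 0.02 points.

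The starts with the smallest p on the higher side overlapped or rested on 1 sample. MAP3K11 read 3.83%, 2.69% and 2.40% in the controls and 4.13%, 4.64% and 2.96% in DCBQ, overlapping, and its difference of 0.94 points (SE 0.55, limma adjusted p = 0.841) was -0.27 within 500 bp of the start. MAP2K5 (MEK5, which activates ERK5) read 1.13%, 0.89% and 0.81% against 0.86%, 1.24% and 1.55%, a difference of 0.28 points. MAP2K7 (MKK7, which activates JNK) read 14.9%, 14.9% and 15.1% against 15.1%, 19.2% and 14.6%. Its difference of 1.36 points came from the second DCBQ sample and was -0.11 without it.

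In the bodies, the 5mC groups were apart in 8 of 38 members, all lower with DCBQ, where 15.8% of all genes were apart, 13.6% lower and 2.23% higher. The 8 were MAPK3, MAPK8, MAPK11, MAPK12, MAP2K6, MAP3K2, MAP3K6 and MAP4K2. MAP4K2 had 81.8%, 81.5% and 80.9% in the controls and 80.2%, 78.9% and 79.8% in DCBQ over 45 CpGs (chr11:64784918-64802713). Every DCBQ sample was lower, by 1.77 points on average (SE 0.55, limma adjusted p = 0.574). MAP2K6 had 77.1%, 76.6% and 75.5% against 74.6%, 75.2% and 74.2% over 112 CpGs (chr17:69415198-69553865), 1.72 points lower in all 3 DCBQ samples (SE 0.62, limma adjusted p = 0.579). MAPK11 had 79.3%, 78.4% and 79.5% against 78.2%, 77.6% and 78.1% over 79 CpGs, a difference of -1.11 points (SE 0.51, limma adjusted p = 0.607).

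With all samples, MAPK8 had the widest body difference of the members, at -3.14 points (SE 1.48, limma adjusted p = 0.612). Its 38 CpGs read 83.3%, 84.6% and 82.8% in the controls and 77.2%, 81.5% and 82.6% in DCBQ, so the first DCBQ sample stood lowest and the third was near the controls. Without the first, the difference was -1.51 points, smaller than that of MAP4K2. MAPK3 (ERK1) read 82.2%, 82.1% and 81.4% against 80.7%, 80.9% and 81.2%, a difference of -0.99 points (SE 0.46). MAP3K2 (MEKK2) and MAP3K6 (ASK2) differed by -0.69 and -0.57 points, and MAPK12 (the gamma isoform of p38) by -1.02, or -0.55 without the second DCBQ sample.

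Bodies higher with DCBQ overlapped the controls. MAP3K7 (TAK1, of cytokine and TGF-beta signalling) read 79.3%, 80.1% and 77.7% in the controls and 82.5%, 81.2% and 78.9% in DCBQ. Its mean was 1.86 points higher (SE 1.10, limma adjusted p = 0.669). MAP3K1 read 26.4%, 26.9% and 27.1% against 27.4%, 27.7% and 26.9%, and MAPK13 (the delta isoform of p38) 83.8%, 83.5% and 83.4% against 86.6%, 84.2% and 83.1%. Their differences were 0.52 and 1.10 points, and that of MAPK13 was 0.1 without the first DCBQ sample.

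For 5hmC at the start, the groups were apart in 3 of 37 members, where all genes gave 9.95%, with 4.25% lower and 5.7% higher. MAPK3 read 0.66%, 0.75% and 0.68% in the controls and 0.41%, 0.49% and 0.19% in DCBQ over 44 CpGs, lower in all 3 (-0.34 points, SE 0.13, limma adjusted p = 0.958). MAPK4, an atypical MAPK, read 1.71%, 2.70% and 2.09% against 1.71%, 1.56% and 1.70%, so its groups touch at the digits printed. Its difference of -0.51 points was -0.25 without the second control. MAP2K3 was apart and higher by 0.32. MAP3K13 (LZK) read 0.83%, 1.01% and 0.62% against 0.37%, 0.69% and 0.44%, and MAP2K1 (MEK1) 1.31%, 0.57% and 0.78% against 0.34%, 0.77% and 0.48%. On the higher side, MAPK6 read 0.27%, 0.17% and 0.65% against 0.92%, 0.34% and 1.14%, MAPK8 0.52%, 1.05% and 0.72% against 1.23%, 1.52% and 0.89%, and MAP3K10 1.35%, 0.97% and 0.70% against 1.47%, 1.19% and 2.29%. All 5 of these overlapped.

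For 5hmC in the body, the groups were apart in 5 of 38 members (all genes 9.90%), 3 lower (all genes 3.55%) and 2 higher (all genes 6.35%). MAP3K7 read 4.02%, 3.00% and 3.24% in the controls and 1.98%, 1.43% and 2.44% in DCBQ over 36 CpGs (chr6:90513579-90586571). Every DCBQ sample was lower, by 1.47 points on average (SE 0.44, limma adjusted p = 0.918). MAP4K1, a kinase of blood cells, read 4.63%, 3.98% and 4.63% against 3.35%, 3.4% and 3.54%, a difference of -0.98 points (SE 0.45, limma adjusted p = 0.941). MAPK9 (JNK2) was apart and lower by 0.32 points on average.

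MAP4K4 read 1.64%, 2.31% and 1.91% in the controls and 2.93%, 2.68% and 3.36% in DCBQ over 118 CpGs, higher in all 3 (1.04 points, SE 0.35, limma adjusted p = 0.938). MAP3K2 was apart and higher by 0.57. MAP4K3 read 3.02%, 2.36% and 2.69% against 4.50%, 3.00% and 4.48%, a difference of 1.3 points with 1 DCBQ sample under the highest control. MAP2K6 read 3.43%, 3.02% and 4.38% against 6.38%, 4.10% and 5.56%, a difference of 1.74 points (SE 0.77). MAP3K11, at 2.31%, 2.99% and 2.53% against 1.91%, 2.40% and 1.96%, overlapped too. In the MAP4K tier 4 of 5 bodies were higher for 5hmC, with a median of 1.04 points. Of all genes, 9240 of 16388 were higher, with a median of 0.09. The MAPK, MAP2K and MAP3K tiers had medians of 0.15, 0.13 and 0.11, and 5 genes are few.

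The body of MAP2K6 had less 5mC and more 5hmC with DCBQ, and that of MAP3K7 more 5mC and less 5hmC. The signs of the 2 marks were opposite in 24 of 38 bodies (all genes 68.7%) and in 21 of 37 starts (all genes 62.3%). Opposite signs are not known to be separate observations, since independence of the marks was not tested.

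Over whole spans, the groups were apart in 5 of 38 members for 5mC (all genes 16.3%), namely MAPK8, MAP2K2, MAP2K6, MAP3K2 and MAP4K2, and in 3 of 38 for 5hmC (all genes 9.93%), namely MAPK4, MAPK8 and MAP4K1. At an unadjusted p under 0.05, limma counted 2 of 38 member spans for each mark, where all genes gave 9.12% and 5.16%. Spans were lower with DCBQ in 26 of 38 members for 5mC (all genes 70%) and in 14 of 38 for 5hmC (all genes 42.5%).

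Within the genes, 1 kb tiles were tested on a fixed grid. None of the 346 member tiles for 5mC and none of the 332 for 5hmC passed the limma test (all tiles 0 for both), with smallest adjusted p of 0.718 and 0.974. At an unadjusted p under 0.05, limma counted 20 and 13 tiles, or 5.78% and 3.92%, where all tiles gave 6.20% and 4.83%. The groups were apart in 40 and 30 tiles (all tiles 11.5% and 9.94%). Lower tiles were 215 and 155 (all tiles 59.9% and 47.2%). A tile of MAPK6, 36.3 kb into the gene (chr15:52055001-52056000, 6 CpGs), was among those with the smallest p for both marks. Its 5mC read 84.0%, 86.3% and 84.7% in the controls and 75.0%, 78.1% and 81.1% in DCBQ, and its 5hmC 3.95%, 1.84% and 1.07% against 9.65%, 8.68% and 5.84%. Both were apart, with limma adjusted p of 0.727 and 0.974.

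A tile of MAP4K1 4.5 kb into the gene (chr19:38613001-38614000, 5 CpGs) went the other way. Its 5mC read 87.1%, 87.1% and 84.3% in the controls and 90.0%, 100% and 95.0% in DCBQ, and its 5hmC 9.27%, 3.82% and 9.09% against 2.50%, 0% and 0%. The limma adjusted p were 0.731 and 0.974. Among the others, a tile next to MAP3K14 that lies in SPATA32 had 92.5% ± 1.15 and 88.0% ± 1.02 5mC over 11 CpGs. A tile of MAP3K7 58.6 kb into the gene had 3.86% ± 1.06 and 1.20% ± 0.47 5hmC over 15 CpGs. Near the start of MAP3K12, a tile of 6 CpGs shared with TARBP2 had 1.88% ± 0.41 and 0.47% ± 0.45 5mC. In a second tile of MAP4K1 and a tile of MAP3K1, 5mC was 91.9% ± 3.18 and 97.7% ± 2.53, and 89.6% ± 2.21 and 94.4% ± 3.23. For 5hmC, a tile of MAP3K6 had 2.26% ± 0.37 and 0.76% ± 0.70, while tiles in MAP3K14 (1.45% ± 0.76 and 4.50% ± 1.56) and MAP4K4 (1.02% ± 0.73 and 2.65% ± 0.78) were apart and higher.

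Genes around the cascade gave no call either. Of lists covering RAS and RAF inputs, scaffolds, other cascade kinases, phosphatases, feedback regulators, MAPK-activated kinases and transcription factor targets, 0 genes passed limma's adjusted threshold in either direction for either mark, at the start or in the body. For 5mC in the body, where 69.5% of all genes were lower with DCBQ, the counts lower were 12 of 15 RAS and RAF inputs, 13 of 13 scaffolds, 7 of 12 other kinases and 12 of 14 phosphatases. They were 10 of 11 MAPK-activated kinases, 14 of 16 transcription factor targets and 4 of 10 feedback regulators. The scaffold KSR1, which assembles the ERK branch, had 76.7%, 77.1% and 76.0% in the controls and 74.8%, 75.4% and 75.4% in DCBQ (limma adjusted p = 0.584). The body of DUSP5, a nuclear phosphatase of ERK, had 6.23% ± 0.37 and 5.2% ± 0.49. At the start of RPS6KA6, of the RSK family, 5mC was 1.48% ± 0.72 and 3.43% ± 0.52 (limma adjusted p = 0.594). Median 5mC at the start in controls was between 1.48% and 5.72% for these 7 lists.

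Some windows take in other genes, so a value there cannot be given to the member alone. The start windows of MAPK7, MAP2K1, MAP2K4, MAP3K12, MAP4K1, MAP4K2 and MAP4K5 overlap B9D1, TIPIN, ZNF18, TARBP2, EIF3K, MEN1 and ATL1. The bodies of MAPK7, MAPK8, MAP2K1, MAP2K4, MAP3K3 and MAP3K12 overlap MFAP4, ARHGAP22, SNAPC5, ZNF18, LIMD2 and PCBP2.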

How the data were processed

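Libraries of SV-HUC-1 DNA were made with RRBS and oxidative RRBS kits, per the labels' protocols, 3 for each treatment and assay (12 in all). Per the submitters' processing notes, Trim Galore, cutadapt and BSMAP 2.90 were used with hg38, with no role or setting stated. The series' design text links 5mC to RRBS and 5hmC to oxidative RRBS, and columns were matched to libraries by that, group and number. How 5hmC was computed is not stated. Each mark has 1 table with a fraction for every CpG and sample, as deposited by the authors, on a scale of 0 to 1 and without depth.

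Any value under 0 was set to 0 before averaging. CpGs were averaged per gene start, body, span and 1 kb tile with at least 5 CpGs. DCBQ and control were compared with limma 3.58.1 (R 4.3.3, lmFit and eBayes with a mean-variance trend), with Benjamini-Hochberg adjustment over all genes or tiles at 0.05. The fit was tested on simulated data. Starts came from RefSeq promoters of GRCh38.p14 for 15841 of 20033 genes and from the CpG-denser end for 4192. All 938 measured CpGs in members' promoter windows fell on a CG of those sequences.

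Members and gene lists were chosen with earlier results of these data known. Members with values in every sample were the 3 with the smallest p in each direction for each mark and region, and each tier's highest and lowest. Those apart were added after their values were seen. Promoter sequences were to be shown for members with the smallest p for 5mC at the start or a start of 20% to 80% 5mC. Of the 10 so found, 5 are printed. Alternatives tried were the CpG minimum, scale, summary, shared CpGs, centring, trend, replicate block, window and samples left out.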

Additional observations from a re-analysis of the deposited data

How the results depend on the processing

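No member, span or tile was called under any alternative tried. Of 180 alternative values for counts, 177 stayed within 1.5 times the value reported. That tally includes the counts of calls, which stayed the same only because nothing was called in any setting. It also includes numbers of lower members under the replicate block and the trend setting, which cannot change a sign. The share that stayed is therefore no measure of how stable the numbers of lower members were. Members lower for 5mC at the start numbered 16 as reported, 5 after centring on the global mean, and 7 of 11 with a value when the median over CpGs replaced the mean; for 5hmC, 3 of 4 with a value were lower by the median, against 23 of 37. Body 5mC counts went from 28 to 19 with centring. Leaving out each sample in turn gave 13 to 22 and 25 to 27 lower members for 5mC at the start and in the body, and 19 to 23 and 10 to 17 for 5hmC.

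Of 511 alternative values for member differences, 505 kept their sign, but many could not change it. The replicate block and the trend setting leave a difference as it was, and leaving out a sample cannot reverse groups that are apart. The members were also picked from these data, for a small p or for groups apart. Values of members apart but outside the naming rule were added after seeing the data. Within 500 bp of the start on each side, MAP2K2 was 0.02 and MAP3K11 -0.27 points for 5mC. MAP2K7 ranged from -0.11 without DCBQ replicate 2 to 2.22 without DCBQ replicate 3. By the median, the 5mC body of MAPK13 was -2.9 and that of MAP3K2 3.0. MAPK6 was -0.3 for 5hmC at its outer gene end, an alternative chosen after seeing the data. The cause was not tested.

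With the replicate block, 0 members were called. The numbers lower stayed at 16, 28, 23 and 14, for 5mC and then 5hmC at the start and in the body. They could not change, since each replicate number occurs once per group and the block then leaves every difference as it was. Same-numbered samples deviated together no more than others, with correlations over genes or tiles of -0.046 to 0.015 for 24 pairs against -0.026 to 0.033 for 48. These correlations cannot show a shift common to all genes. Whether same-numbered samples share a culture or batch is therefore unknown. Depth per CpG is unknown, and the spread of 3 samples per group sets which differences could be seen.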
